A study of Mus musculus with 6 samples.

Results

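The genes described here encode Z-disc and thin filament proteins of the muscle sarcomere whose isoforms differ between slow, fast and heart muscle. They are Actn2, Actn3, Myoz1, Myoz2, Myoz3, Ldb3, Tpm1, Tpm3, Acta1 and Actc1. The members were every probe set whose single platform gene symbol is one of these 10 genes, and all 10 genes were found, by 21 of the 45037 probe sets tested. Each probe set reads 1 or more transcripts through several short probes, and the number per gene ran from 1 for Actn2, Actn3, Myoz2, Acta1 and Actc1 to 5 for Tpm3.

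RNA came from muscle of 3 SIRT6KO mice (KO) and 3 wild-type mice (WT), all on the 129SvJ background, with 1 Affymetrix mouse genome array per mouse. SIRT6 is a chromatin-bound, NAD-dependent deacylase. The sources used here do not give which muscle was taken, the age and sex of the mice or the extent of the Sirt6 deletion. The replicates are labelled biological, and the comparison is of KO with WT muscle.

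Values are intensities on a linear scale as deposited, and changes are KO minus WT on log2(intensity + 16), tested with limma over all 45037 probe sets with Benjamini-Hochberg adjustment (threshold 0.05). The only probe set named to Sirt6 read 13.7 to 22.6 in the KO arrays and 15.1 to 23.2 in the WT arrays, so it does not check the labels. Xist (probe set 1436936_s_at) read 715.4 to 1165.7 in the KO arrays and 24.5 to 31.3 in the WT arrays. The Y-chromosome gene Eif2s3y (1417210_at) read 1.1 to 4.1 in the KO arrays and 44.5 to 77.1 in the WT arrays. Its other probe set read 4.5 or less. By these genes the KO mice read as female and the WT mice as male, so genotype and sex cannot be told apart in any comparison here. The added hybridization controls of WT replicate 1 stood at 1.93 times the median array, against 0.971 to 1.01 in the other arrays, and its brightest probe set read 17905.4, against 10099.5 to 10573.2 elsewhere. KO replicate 3 correlated with the other 5 arrays at r = 0.910 to 0.951 over all probe sets, where the other 10 pairs of arrays lay between 0.942 and 0.967. The Gapdh 3' to 5' ratio, a sign of RNA integrity, was 0.811 to 0.846 in the KO arrays and 0.827 to 0.835 in the WT arrays.

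The Z-disc borders each sarcomere and anchors the thin filaments of neighbouring sarcomeres. Alpha-actinins cross-link the actin filaments there, calsarcins (the Myoz genes) tie alpha-actinin to the phosphatase calcineurin, and Ldb3 (ZASP or Cypher) is a PDZ-LIM adaptor that binds alpha-actinin. The thin filament itself is made of sarcomeric actin with tropomyosin lying along it, which together with troponin gates the binding of myosin. Several of these genes mark fibre types: Actn3, Myoz1 and Myoz3 belong to fast fibres, Myoz2 to slow fibres and heart, the muscle form of Tpm3 to slow fibres and the main muscle form of Tpm1 to fast fibres and heart. Acta1 is the actin of adult skeletal muscle, and Actc1 that of heart and of developing muscle.

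RefSeq promoter sequences (GRCm38.p6, 250 bases before to 50 after the annotated start) were found for 7 of the 10 genes; Actn3, Myoz1 and Myoz3 were not in the table. They are shown because Myoz2 and Tpm3 had the closest profiles over the arrays and because Actc1 and Acta1, the pair of sarcomeric actins, did not share theirs. Capitals mark matches on either strand to the MEF2 site, the CArG box bound by serum response factor, the MCAT element (CATTCC) and the TATA box (TATAAA).
Myoz2, chr3:123034938-123035237, minus strand: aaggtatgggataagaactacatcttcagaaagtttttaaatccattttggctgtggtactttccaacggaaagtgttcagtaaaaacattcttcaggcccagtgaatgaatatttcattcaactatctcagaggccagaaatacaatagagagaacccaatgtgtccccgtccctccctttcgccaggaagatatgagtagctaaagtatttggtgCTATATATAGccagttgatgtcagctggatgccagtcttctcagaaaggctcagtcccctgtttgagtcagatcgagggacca
Tpm3, chr3:90072401-90072700, plus strand: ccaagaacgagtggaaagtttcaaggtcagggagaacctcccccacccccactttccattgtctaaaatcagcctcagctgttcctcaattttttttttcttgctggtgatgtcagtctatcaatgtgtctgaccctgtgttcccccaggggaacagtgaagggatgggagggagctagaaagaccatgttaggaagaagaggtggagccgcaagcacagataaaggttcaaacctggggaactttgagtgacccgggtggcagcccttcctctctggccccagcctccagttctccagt
Actc1, chr2:114052826-114053125, minus strand: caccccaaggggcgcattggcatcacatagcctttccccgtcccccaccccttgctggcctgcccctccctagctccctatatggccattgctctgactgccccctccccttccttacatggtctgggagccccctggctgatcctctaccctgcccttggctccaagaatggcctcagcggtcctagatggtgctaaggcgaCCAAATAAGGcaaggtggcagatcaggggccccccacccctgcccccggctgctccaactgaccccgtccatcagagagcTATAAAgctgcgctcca
Acta1, chr8:123894726-123895025, minus strand: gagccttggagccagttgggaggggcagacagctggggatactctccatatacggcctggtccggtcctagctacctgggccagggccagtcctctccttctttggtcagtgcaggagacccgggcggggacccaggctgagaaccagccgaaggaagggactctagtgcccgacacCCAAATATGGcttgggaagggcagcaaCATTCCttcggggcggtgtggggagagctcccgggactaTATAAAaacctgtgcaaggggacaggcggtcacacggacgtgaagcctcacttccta
Ldb3, chr14:34588632-34588931, minus strand: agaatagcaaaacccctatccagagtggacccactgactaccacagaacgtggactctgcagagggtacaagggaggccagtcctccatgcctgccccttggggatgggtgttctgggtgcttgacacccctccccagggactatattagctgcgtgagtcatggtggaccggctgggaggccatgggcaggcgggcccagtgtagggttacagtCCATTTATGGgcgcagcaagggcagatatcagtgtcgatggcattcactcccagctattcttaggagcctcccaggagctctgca
The Myoz2 window holds 1 MEF2 site, which 3.16% of the 32544 promoter windows of this length hold. The Acta1, Actc1 and Ldb3 windows hold 1 CArG box each, against 1.64% of all windows. Acta1 also holds 1 MCAT element (14.6% of all windows) and 1 TATA box (13.6%), and Actc1 holds 1 TATA box. Relative to the annotated start, the TATA match begins at -7 in Acta1 and at 33, after the start, in Actc1. The Tpm1 window, not printed, holds 1 MCAT element. Tpm3 is annotated with a further start at chr3:90079271-90079570. Neither Tpm3 window, nor that of Actn2, matched any of these 4 motifs. The E-box (CANNTG), the site of myogenic bHLH factors, was in 72.3% of windows and was matched in those of Myoz2, Actn2, Acta1, Actc1, Tpm1 and Tpm3 and in neither window of Ldb3. These matches describe the letters only.

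Of the 21 probe sets, 6 had a higher mean log2 level in KO and 15 a lower one, with a median log2 change of -0.34, against -0.0078 over all probe sets. With each array divided by the relative level of its added controls (hybridization-control scaling), which moves the median of all probe sets to 0.098, the split was 9 higher and 12 lower with a median of -0.040. On the deposited values none passed the threshold, beside 0.00888% of all probe sets, and the adjusted p-values lay between 0.560 and 0.911. At an unadjusted p under 0.05 there were 4 of 21, where 8.56% of all probe sets passed: 3 higher in KO (3.57% of all) and 1 lower (4.99% of all). Every KO array lay above every WT array for 3 probe sets, those of Myoz2 and 2 of Tpm3 (5.02% of all probe sets). Every KO array lay below every WT array for 4, namely 1 of Myoz3, 2 of Ldb3 and 1 of Tpm1 (7.29% of all probe sets). Without WT replicate 1 these counts were 6 and 5, where 22.9% of all probe sets did not overlap in either direction, and without KO replicate 3 they were 4 and 4 (19.6%). After quantile normalization they were 4 and 3 (17.0%), and with hybridization-control scaling 6 and 0 (14.9%). With each gene taken by its brightest probe set, 3 of 10 did not overlap (12.9% of 18193 genes): Myoz2 and Tpm3 were above (4.51% of genes) and Myoz3 below (8.34% of genes).

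All 21 probe sets were also among the 22515 whose mean level is above the median, where 0.342% passed and none of the members did. Leaving out KO replicate 1 from this filtered fit, a setting chosen after seeing the data, let 7 members pass, where 5.98% of probe sets did: Myoz2 and Tpm3 1449997_at and 1449996_a_at, all higher, and Actc1, Myoz3 1430738_at, Ldb3 1433783_at and Tpm1 1456623_at, all lower. Leaving out KO replicate 3 let 3 pass, where 1.37% did: Myoz2 (log2 change 1.32, adjusted p = 0.00159) and the same pair of Tpm3 probe sets. None passed without WT replicate 1, 2 or 3 or KO replicate 2, where 0.0355%, 0.298%, 0.0355% and 0.0577% of probe sets did.

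**Figure D1:**
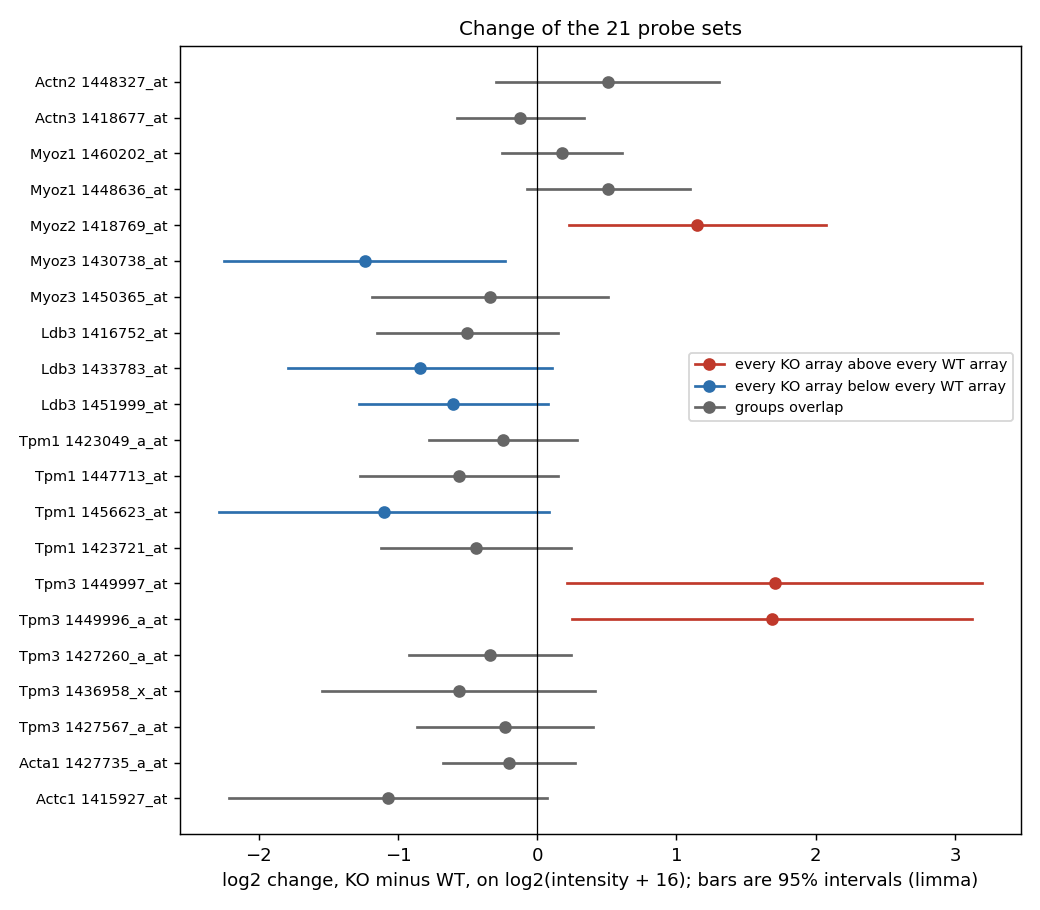
The log2 change (KO minus WT) of each of the 21 probe sets is plotted with its 95% interval from limma, in red where every KO array lay above every WT array, blue where every KO array lay below, and grey where the groups overlapped. The largest positive changes are those of Tpm3 probe sets 1449997_at (1.71) and 1449996_a_at (1.68), and the largest negative one is that of Myoz3 probe set 1430738_at (-1.24).

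Myoz2, the slow-fibre calsarcin, read higher in all KO arrays than in any WT array. Its only probe set, 1418769_at, read 640.2, 1523.8 and 684.1 in KO muscle, against 397.5, 538.3 and 266 in WT muscle. KO replicate 2 stood apart, at 3.80 times the WT mean, while the other KO arrays were at 1.60 and 1.71 times. The group means were 949 ± 498 in KO and 401 ± 136 in WT (SD, n = 3 each), and the level was 2.22-fold higher (95% interval 1.17 to 4.21, adjusted p = 0.560). Without KO replicate 2 the log2 change was 0.76, against 1.15 with it.

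Tpm3 encodes the slow-fibre tropomyosin and, from another start, cytoskeletal forms made in most cells. Probe set 1449997_at, designed from the RefSeq transcript, read 221.4, 769.9 and 181.9 in KO muscle, against 95.5, 162.3 and 37.5 in WT muscle. Probe set 1449996_a_at, designed from the same transcript, read 155.4, 571.9 and 141.7 in KO muscle, against 76.4, 108.3 and 25.7 in WT muscle. In both, every KO array was above every WT array and KO replicate 2 was far above the rest, at 7.82 and 8.15 times the WT mean. After quantile normalization 1449997_at overlapped between the groups and 1449996_a_at did not. The level at 1449997_at was 3.26-fold higher (95% interval 1.16 to 9.16, adjusted p = 0.564) and that at 1449996_a_at 3.21-fold higher (1.19 to 8.70, adjusted p = 0.563). Without KO replicate 2 the log2 changes were 1.09 and 1.07, against 1.71 and 1.68 with it.

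The other 3 Tpm3 probe sets did not follow this pattern. Probe set 1427260_a_at read 106.2, 199.1 and 134.4 in KO muscle, against 233.1, 159.1 and 167.6 in WT muscle, with a log2 change of -0.34 (adjusted p = 0.748). Probe set 1436958_x_at, whose suffix marks probes that may also bind other sequences, read 35.2, 37.4 and 7.8 in KO muscle, against 52.1, 67.3 and 21.1 in WT muscle. Probe set 1427567_a_at was dim in every array, at 8.2 to 22.8 in KO muscle and 10.5 to 31.3 in WT muscle. The groups overlapped in all 3. Over the 6 arrays the 2 higher Tpm3 probe sets correlated with each other at r = 0.998, while 1449997_at correlated with 1427260_a_at at r = -0.035 and with 1427567_a_at at r = -0.026; the points share arrays and scaling. Averaged over its 5 probe sets, Tpm3 had a log2 change of 0.45 (adjusted p = 0.759), so the value for the gene depends on which probe sets are used. Which of them read the slow-fibre form was not tested.

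**Figure D2:**
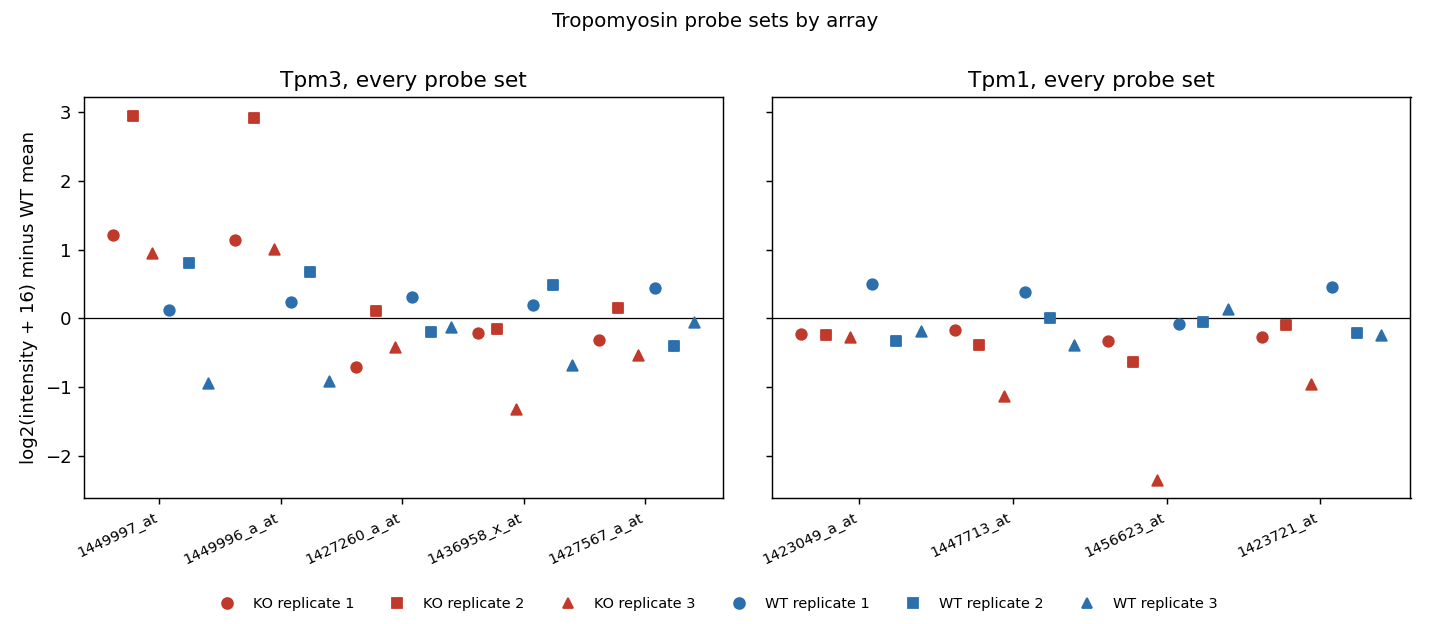
Each point is 1 array's log2(intensity + 16) minus the WT mean for every probe set of Tpm3 (left) and Tpm1 (right), KO in red and WT in blue, with marker shapes for replicate numbers. KO replicate 2 is the highest point at Tpm3 probe sets 1449997_at and 1449996_a_at, and KO replicate 3 is the lowest at the Tpm1 probe sets other than 1423049_a_at.

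Actn2, an alpha-actinin of skeletal muscle and heart, read 1330.3, 2560.9 and 1039.1 in KO muscle, against 1146.4, 1234.6 and 860.1 in WT muscle (probe set 1448327_at). Only KO replicates 1 and 2 were above all WT arrays, and the groups overlapped. The ratio of KO to WT was 1.42 (95% interval 0.816 to 2.48, adjusted p = 0.722). Without KO replicate 2 the log2 change was 0.14, against 0.51 with it.

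Actn3, the fast-fibre alpha-actinin, read 8835.3, 8685 and 8802.7 in KO muscle, against 12655.3, 8476.5 and 8090.5 in WT muscle (probe set 1418677_at). WT replicate 1 alone stood apart from the other 5 arrays. The ratio of KO to WT was 0.920 (0.672 to 1.26, adjusted p = 0.911). Its log2 change of -0.12 was 0.083 without WT replicate 1, 0.061 with quantile normalization and 0.21 with hybridization-control scaling. Actn3, Acta1 and the brightest Tpm1 probe set stood at 70.7% to 97.8% of the highest intensity on their array. Actc1 stood at 67.7% to 70.0% in the WT arrays and at 71.9% in KO replicate 1. Whether readings are still in proportion to RNA at such levels was not tested.

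Myoz1, the main calsarcin of fast fibres, was close between the groups at its bright probe set. Probe set 1460202_at read 4545.5, 4934 and 4963.3 in KO muscle, against 5373.2, 4137.7 and 3438.4 in WT muscle, or 1.13-fold (0.840 to 1.53, adjusted p = 0.837). Here WT replicate 1 was the highest array and the other WT arrays the lowest. The dim probe set 1448636_at read 136.8, 218 and 164.7 in KO muscle, against 139.9, 133.7 and 79.8 in WT muscle (log2 change 0.51, adjusted p = 0.620). At both probe sets every KO array lay above every WT array after quantile normalization and after hybridization-control scaling, which is not so for the deposited values.

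Myoz3, a further calsarcin of fast fibres, read lower in KO muscle at 1 of its 2 probe sets. Probe set 1430738_at read 148.9, 88.9 and 31.2 in KO muscle, against 216.3, 220.4 and 179.6 in WT muscle. All KO arrays were below all WT arrays, though not with hybridization-control scaling, and KO replicate 3 was at 0.152 times the WT mean. The ratio of KO to WT was 0.424 (0.210 to 0.853, adjusted p = 0.562), and the log2 change of -1.24 was -0.75 without KO replicate 3. Probe set 1450365_at read 109.6, 97.1 and 38.7 in KO muscle, against 68.8, 125.7 and 114.8 in WT muscle, so that the groups overlapped (log2 change -0.34, adjusted p = 0.845); without KO replicate 3 its log2 change was 0.036.

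Ldb3 read lower on average in KO muscle at all 3 of its probe sets, most of all in KO replicate 3. The brightest, 1416752_at, read 2622.7, 2745.1 and 1548.8 in KO muscle, against 4131.8, 2918.6 and 2645.3 in WT muscle, and the groups overlapped (ratio 0.706, 0.450 to 1.11, adjusted p = 0.657). Probe set 1433783_at read 860.1, 741 and 284.8 in KO muscle, against 1218.2, 1016.6 and 886 in WT muscle (ratio 0.558, 0.289 to 1.08, adjusted p = 0.612). In the third, 1451999_at, the values were 192.5, 182.8 and 84.3 in KO muscle, against 226, 241.9 and 217.4 in WT muscle (ratio 0.658, 0.411 to 1.05, adjusted p = 0.611). At both 1433783_at and 1451999_at every KO array was below every WT array; with quantile normalization this was so at 1416752_at and 1433783_at, and with hybridization-control scaling at none. KO replicate 3 stood at 0.479, 0.274 and 0.369 times the WT mean at the 3 probe sets, and without it the log2 changes of -0.50, -0.84 and -0.60 were -0.24, -0.36 and -0.26.

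Tpm1, the tropomyosin of fast fibres and heart, showed no separation at its bright probe set. Probe set 1423049_a_at read 8643.2, 8635.1 and 8436.5 in KO muscle, against 14421.5, 8115 and 8953.8 in WT muscle, with WT replicate 1 alone standing apart (ratio 0.844, 0.583 to 1.22, adjusted p = 0.816). Its log2 change of -0.24 was 0.0079 without WT replicate 1 and 0.086 with hybridization-control scaling. The other 3 Tpm1 probe sets, all dimmer, were lowest in KO replicate 3. Probe set 1456623_at read 160.8, 126.5 and 27.4 in KO muscle, against 192.4, 196.1 and 228.1 in WT muscle, every KO array below every WT array (ratio 0.466, 0.205 to 1.06, adjusted p = 0.602). After quantile normalization and after hybridization-control scaling its groups overlapped. Without KO replicate 3 its log2 change of -1.10 was -0.48. Probe sets 1447713_at and 1423721_at had log2 changes of -0.56 and -0.44 with overlapping groups, and KO replicate 3 was at 0.441 and 0.389 times the WT mean.

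Acta1, the principal actin of the skeletal muscle thin filament, read 9818.1, 9876.4 and 9375.7 in KO muscle, against 15079.8, 9554.3 and 9667.1 in WT muscle (probe set 1427735_a_at). The ratio of KO to WT was 0.868 (0.625 to 1.20, adjusted p = 0.828). Apart from WT replicate 1 the arrays lay within a narrow band. The log2 change of -0.20 was 0.011 without that array and 0.13 with hybridization-control scaling.

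Actc1, the cardiac actin, varied widely among the KO arrays. It read 7411.8, 4701.4 and 1979.6 in KO muscle, against 12129.7, 7201.8 and 7397.1 in WT muscle (probe set 1415927_at). KO replicate 1 lay between the WT arrays, while KO replicates 2 and 3 were below all of them. The ratio of KO to WT was 0.476 (0.216 to 1.05, adjusted p = 0.599), and the log2 change of -1.07 was -0.55 without KO replicate 3. The coding sequences of the sarcomeric actins are nearly alike, and how much of this signal comes from Acta1 transcript was not tested. The Acta1 probe set itself did not show the spread among KO arrays seen here. The heart markers were dim: Nppa, Nppb and Tnni3 stayed below 16 in every array, Myh6 reached 17.8 in KO muscle and 8.3 in WT muscle, and Mybpc3 read 18.7 to 28.3 in KO muscle and 15.8 to 34 in WT muscle. These 5 summed to 39.5 to 51.5 in KO muscle and 31.8 to 58.5 in WT muscle.

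**Figure D3:**
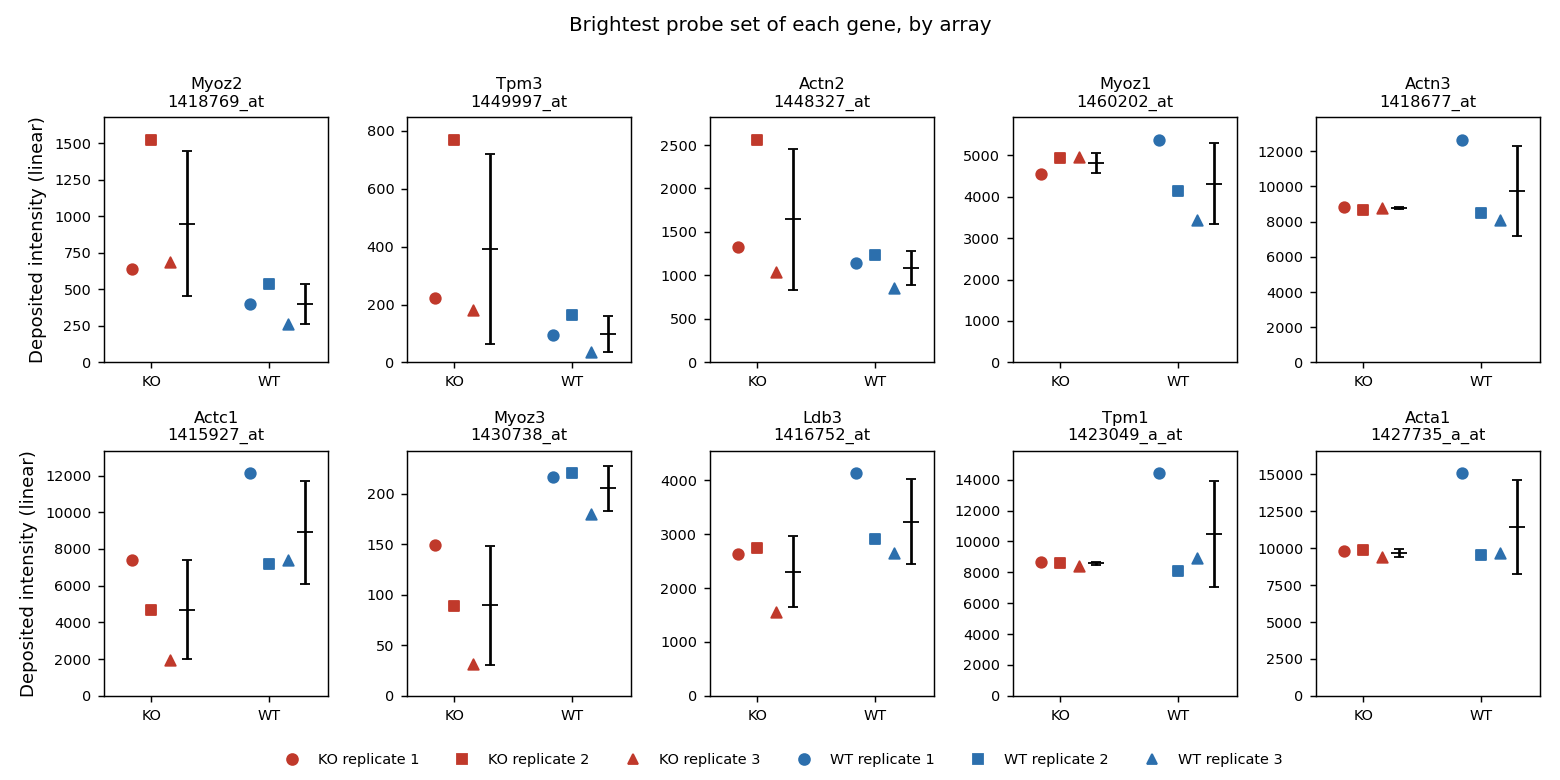
The deposited intensity of the brightest probe set of each gene is plotted for every array, KO left in red and WT right in blue, with marker shapes for replicate numbers and the group mean ± SD (n = 3 each) in black. KO replicate 2 is the highest point for Myoz2, Tpm3 and Actn2, KO replicate 3 the lowest for Actc1, Myoz3 and Ldb3, and WT replicate 1 the highest for Actn3, Tpm1 and Acta1.

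Over the 21 probe sets KO replicate 3 was the lowest array in 12, WT replicate 3 in 7, and WT replicate 1 the highest in 11. Of the 17 with a mean above 100, KO replicate 3 was the lowest in 8, WT replicate 3 in 7, and WT replicate 1 the highest in 9. Of all 4825 probe sets with a mean above 100, the shares were 25.7% lowest in KO replicate 3, 52% lowest in WT replicate 3 and 45.0% highest in WT replicate 1. KO replicate 3 was the highest array in 0 of the 21 members and in 33.0% of those 4825 probe sets. Over the 6 arrays Ldb3 probe set 1433783_at correlated with Actc1 at r = 0.974, with Myoz3 probe set 1430738_at at r = 0.966 and with Tpm1 probe set 1456623_at at r = 0.961. Genes of muscle wasting were highest in the same array: the ubiquitin ligase gene Fbxo32 (probe set 1448747_at) read 143.7, 1296.6 and 4078.5 in KO muscle, against 135.7, 75.9 and 55.5 in WT muscle, and Trim63 read 512.1, 1825.4 and 6884.7 in KO muscle, against 468.2, 408 and 285.7 in WT muscle. Their part in the low values was not tested. In bulk muscle, fewer fibres of a type and less RNA per fibre cannot be told apart.

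The slow and fast partners were also compared within each array, where a difference of 2 bright probe sets hardly depends on a linear scaling of the array and gives no relative amounts. The difference Myoz2 minus Myoz1, set to a WT mean of 0, was 0.61, 1.72 and 0.58 in the KO arrays, against -0.30, 0.50 and -0.21 in the WT arrays. For Tpm3 the brightest probe set was taken, without knowing which form it reads. This probe set was not bright in WT muscle, at 37.5 to 162.3. With the offset of 16 its differences depend more on array scaling, and those of the dimmer 1436958_x_at and 1427567_a_at still more. The difference Tpm3 (1449997_at) minus Tpm1 (1423049_a_at) was 1.45, 3.18 and 1.22 in the KO arrays, against -0.38, 1.13 and -0.75 in the WT arrays. In both pairs every KO array was above every WT array, with KO replicate 3 just above WT replicate 2. Against the same Tpm1 probe set, Tpm3 1449996_a_at also lay above in every KO array (KO minus WT 1.93), while 1427260_a_at, 1436958_x_at and 1427567_a_at overlapped (-0.095, -0.32 and 0.015). The difference Actn2 minus Actn3 was 0.42, 1.38 and 0.077 in the KO arrays, against -0.31, 0.38 and -0.070 in the WT arrays, and the groups overlapped. The difference Actc1 minus Acta1 was -0.036, -0.70 and -1.87 in the KO arrays, against 0.055, -0.038 and -0.017 in the WT arrays. Their SD was 0.93 over the KO arrays and 0.049 over the WT arrays. Actn3, Tpm1 and Acta1 serve here as partners near the top of the scale, and Actc1 was also high on it in the WT arrays and KO replicate 1. Proportion to RNA was not tested there, so the size of these differences is uncertain. No test was made on these pairs, since the genes were chosen with results of these arrays known.

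**Figure D4:**
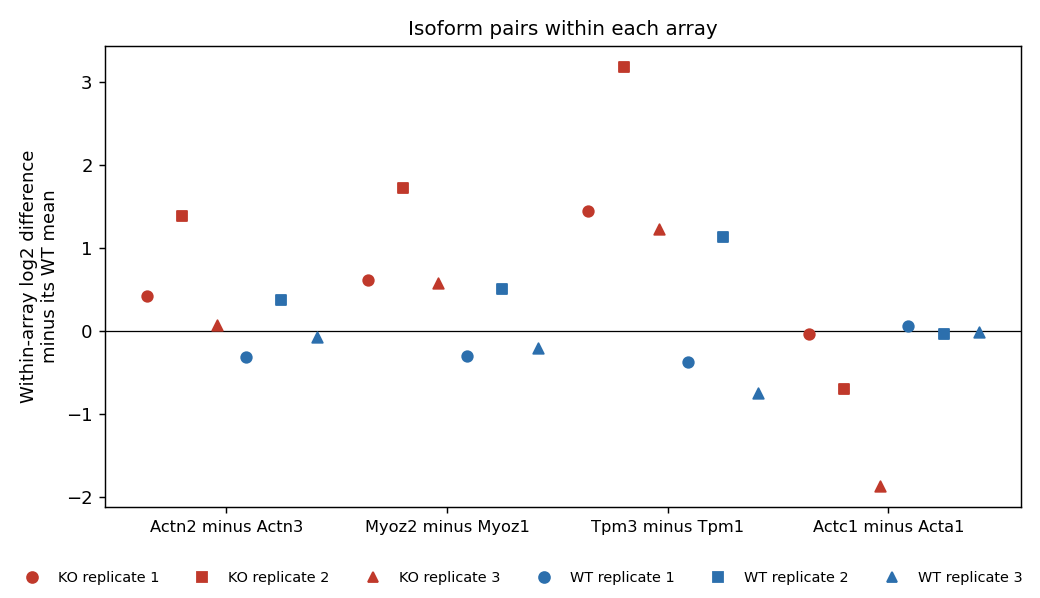
For each pair the within-array log2 difference between the brightest probe sets is plotted after subtracting its WT mean, KO in red and WT in blue, with marker shapes for replicate numbers. KO replicate 2 is highest for the Actn, Myoz and Tpm pairs (1.38, 1.72 and 3.18) and KO replicate 3 is lowest for the actin pair (-1.87).

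Profiles over the 6 arrays were compared with those of Myoz2 and Myoz1. Among 3042 other genes with a mean above 100, the closest to Myoz2 were Tpm3 (Pearson r = 0.992), Tnnc1, the slow and cardiac troponin C (0.986), Myh7, the slow myosin heavy chain (0.979), Svil, an actin-binding supervillin (0.976), and Mybpc1, the slow myosin-binding protein C (0.976), and 20 genes had r above 0.95. The closest to Myoz1 were Gdi2 (0.995), Csnk1a1 (0.989), Htatsf1 (0.984), Paip2 (0.983) and St13 (0.982), none of them a sarcomere gene, and 31 genes had r above 0.95. These correlations describe 6 arrays that share their scaling.

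Other fibre-type genes lay as follows. Of 9 slow-fibre genes outside the members 7 were higher on average in KO muscle, with a median log2 change of 1.02 against -0.017 over all 18193 genes, and 0 passed the threshold (0.0055% of genes did). KO replicate 2 was the highest array, with summed slow-gene intensities of 4574.5, 8275.3 and 2713.2 in KO muscle, against 4696.2, 5161.8 and 2603.8 in WT muscle, so that the sums overlapped. The 2 lower genes were Mb (log2 change -0.64) and Casq2 (-0.13). Mb was the brightest of the 9 in every array but KO replicate 2, so the sums follow it closely. It read 2170.3, 1685.7 and 1144.3 in KO muscle, against 3239.7, 2885.4 and 1716.2 in WT muscle. Without KO replicate 2 the median was 0.53, again with 7 of 9 higher. With hybridization-control scaling 8 of the 9 were higher (median 1.28, against 0.12 over all genes). For 1 of the 9, Tnnc1, every KO array was above every WT array (4.51% of all genes), at 264.2, 801.4 and 205.7 in KO muscle, against 142.4, 199.2 and 69.6 in WT muscle. Of 12 fast-fibre genes 10 were lower on average (median log2 change -0.19), but with hybridization-control scaling 10 were higher (median 0.14), and without WT replicate 1 the split was 7 higher and 5 lower. None of the 12 passed, and all overlapped between the groups, where 12.9% of all genes did not. Casq1, the calcium-storing calsequestrin of fast fibres, had the lowest p of these, with 6315.4, 5730.2 and 2434.2 in KO muscle, against 9052.1, 6302.8 and 5855 in WT muscle. On every array the highest intensity was that of Mylpf or Atp2a1, both among the 12 fast-fibre genes. Mylpf read 10315.6 in KO replicate 1 and 17905.4 in WT replicate 1. Whether the brightest fast-fibre readings are in proportion to RNA was not tested, so their overlap does not show that RNA levels were alike. The summed intensity of 8 skeletal muscle identity genes, among them Ckm and Ryr1, was 52402 to 54146 in KO muscle and 49673 to 80728 in WT muscle, so the tissue label was borne out in every array. Des, the intermediate filament gene that links Z-discs, read 2428.9, 2866.9 and 2606.2 in KO muscle, against 2413.5, 2419.7 and 1928.7 in WT muscle.

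Of 26 measured other Z-disc genes (29 listed), 10 were higher and 16 lower on average in KO muscle, with a median log2 change of -0.042, but with hybridization-control scaling 19 were higher and 7 lower (median 0.23). None passed the threshold, and every KO array was above every WT array for 2 (4.51% of all genes) and below for 3 (8.34%). Without WT replicate 1 the split was 16 higher and 10 lower, and without KO replicate 3 it was 14 and 12. The 5 genes of the Z-disc and thin filament lists with the lowest p among those higher in KO were Lmod2, Nebl, Smtnl1, Nrap and Pdlim5. Lmod2, a leiomodin that nucleates thin filaments, read 289.1, 365.6 and 402.4 in KO muscle, against 232.4, 212.9 and 88.8 in WT muscle, and was 2.01-fold higher (adjusted p = 0.559). Nebl, the nebulette gene of the heart Z-disc, stayed below 16 in every array. Nrap, an actin-binding scaffold of growing myofibrils, read 1106.1, 1564.3 and 1771.8 in KO muscle, against 1194.4, 1129.6 and 942.8 in WT muscle. Smtnl1 (smoothelin-like) and Pdlim5 (a PDZ-LIM adaptor related to Ldb3) had log2 changes of 0.71 and 0.59 with overlapping groups, and only 3 of the 7 Pdlim5 probe sets shared that direction.

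Of 24 measured other thin filament and actin-dynamics genes (26 listed), 5 were higher and 19 lower on average in KO muscle, with a median log2 change of -0.39, and with hybridization-control scaling 10 were higher and 14 lower (median -0.071). Without WT replicate 1 the median was -0.25. None passed the threshold. With the deposited values 9 had every KO array below every WT array, where 8.34% of genes did. The 5 with the lowest p among those lower in KO were Fhod3, Cap2, Acta2, Actg1 and Actg2. Fhod3, a formin needed for sarcomere assembly in heart, read 38.2, 26.2 and 35.5 in KO muscle, against 95.9, 77.9 and 70.8 in WT muscle, and was lower by a log2 change of -0.98 (adjusted p = 0.380). Cap2, an actin-cycling protein gene, read 422.3, 326.1 and 298.8 in KO muscle, against 616.6, 530.4 and 523 in WT muscle (log2 change -0.66, adjusted p = 0.524), and its other probe set also had every KO array below every WT array.

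Acta2, Actg1 and Actg2 are actins outside the sarcomere. Acta2, the smooth muscle actin, read 340.2, 255.1 and 105.4 in KO muscle, against 802, 585 and 539.2 in WT muscle (1416454_s_at, log2 change -1.51, adjusted p = 0.524), while its other 2 probe sets were dim, at 11.4 or less. Actg1, a cytoplasmic actin, read 496.2, 579.3 and 513.4 in KO muscle, against 1234.4, 715.3 and 843.3 in WT muscle (1415779_s_at, log2 change -0.76, adjusted p = 0.529). These Acta2 and Actg1 probe sets have the suffix s_at, and how much of their signal comes from other actin transcripts was not tested. Actg2, the enteric smooth muscle actin, read 83.6, 60.8 and 32 in KO muscle, against 132, 115.5 and 108.6 in WT muscle (log2 change -0.91, adjusted p = 0.529). Actb, the other cytoplasmic actin, looked at after these values were seen, read 2999.1, 3413.4 and 2799.4 in KO muscle, against 4941.1, 3539.2 and 3422.8 in WT muscle at its brighter probe set, and its other probe set overlapped between the groups. Its log2 change of -0.35 was -0.023 with hybridization-control scaling. Markers of non-muscle cells ran as follows. Of 6 smooth muscle markers, Acta2 among them, 5 were lower (4 with hybridization-control scaling), and they summed to 281 to 581 in KO muscle and 798 to 1171 in WT muscle, with Cnn1 below 16 in every array. Acta2 and Smtn were the brightest and held most of each sum. Myh11, counted as lower, had a log2 change of -0.0029, and Tagln was higher (0.29). Smtn, the smooth muscle marker with the lowest p, read 150.1, 140 and 97.1 in KO muscle, against 252, 221.7 and 204 in WT muscle. Of 6 fibroblast and tendon markers 5 were lower (4 with hybridization-control scaling), and they summed to 3018 to 6357 in KO muscle and 6035 to 10244 in WT muscle. Pdgfra was higher (0.45), Col1a1 and Col3a1 together held most of each sum, and Scx was dim, at 25.2 or less. The 4 measured adipocyte markers, all lower on the log2 scale (2 with hybridization-control scaling), summed to 2283 to 4039 in KO muscle and 2927 to 5757 in WT muscle. Both sums overlapped between the groups, and most of the adipocyte sum was Fabp4. Cidec had a log2 change of only -0.094, with mean intensities of 75.4 in KO and 73.7 in WT muscle. Without WT replicate 1 the adipocyte markers were 1 higher and 3 lower. The part of all these markers in the actin values was not tested.

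Of 7 genes of developing or denervated muscle, where Actc1 is also made, 4 were higher and 3 lower on average in KO muscle and 0 passed. Chrna1, the acetylcholine receptor alpha subunit, read 102.4, 211.4 and 110.5 in KO muscle, against 101.7, 70 and 64.1 in WT muscle (log2 change 0.69, adjusted p = 0.581). Chrna1, Myh3, Myh8 and Myl4 were highest in KO replicate 2. Myog and Myod1 were lowest in KO replicate 3, as Actc1 was, and Chrng stayed below 16 in every array. A link of these genes to the Actc1 values was not tested.

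**Figure D5:**
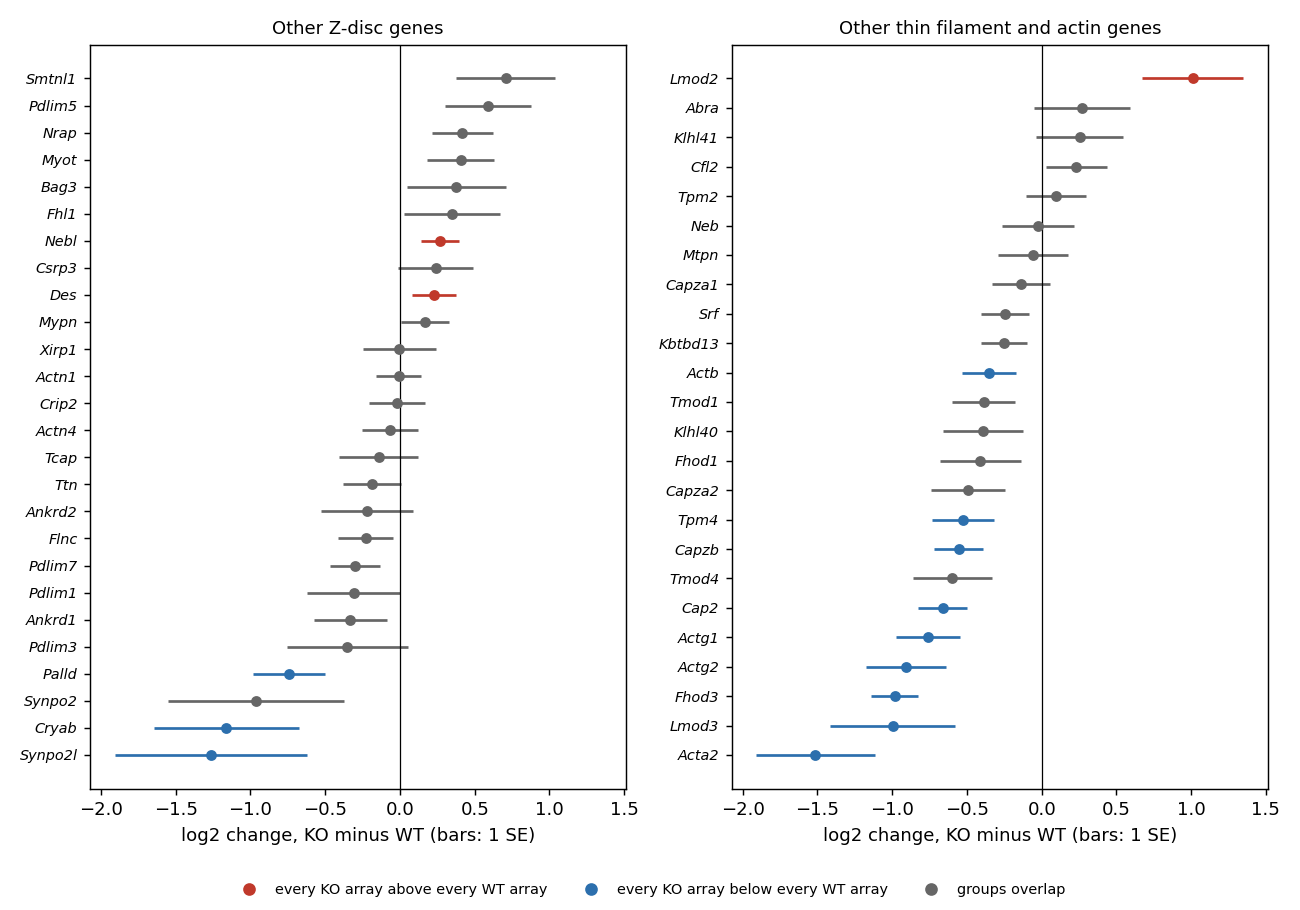
The log2 change (KO minus WT, bars 1 SE from limma) is plotted for 26 other Z-disc genes (left) and 24 other thin filament and actin-dynamics genes (right), each by its brightest probe set, in red where every KO array lay above every WT array, blue where every KO array lay below, and grey where the groups overlapped. Of the thin filament genes 19 lie left of 0, with Acta2 lowest at -1.51 and Lmod2 highest at 1.01.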

How the data were processed

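Affymetrix mouse genome arrays of muscle RNA (TriPure extraction and biotin labelling, per the labels' protocols) were compared between 3 KO and 3 WT mice. The deposited table gives 1 linear intensity per probe set and array. The sources used here do not give the software, background correction or scaling behind it. Array medians differed, from 10.8 to 15. No column was left unused.

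The 64 control probe sets were left out, leaving 45037. Probe sets were named from the platform annotation, 34945 with 1 symbol, 932 with several and 9160 not listed, with symbols updated through the RefSeq gene table. Intensities were used as log2(intensity + 16) with no further normalization, and tested with limma 3.58.1 (lmFit and eBayes, two-sided) under R 4.3.3, and p-values were adjusted by Benjamini-Hochberg over all of them. Fold changes on this scale understate changes of dim probe sets. A list gene was represented by its brightest probe set (18193 genes). The fit was also run on simulated data with independent noise at each probe set. Those data hold no differences between whole arrays, so the run does not bear on the array differences described above. The number of arrays limits the precision, and an exact permutation test of 3 against 3 cannot go below p = 0.1.

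The members, lists and tests were chosen with earlier results of these data known. Named genes were all members, the 5 Z-disc and thin filament list genes with the lowest p in each direction, the gene with the lowest p of the slow, fast, smooth muscle, development and identity lists, Fbxo32 and Trim63, and the 5 genes closest to Myoz2 and Myoz1. Alternatives were quantile normalization, median centring, the replicate number as a block, an offset of 1 or of 64, only the probe sets whose mean lies above the median, trended and robust variances, leaving out each array, a 0.01 threshold and averaging all probe sets of a gene. Hybridization-control scaling (each array divided by its level of added control RNA) and the filter combined with leaving out an array were added after seeing the data.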

Additional observations from a re-analysis of the deposited data

How the results depend on the processing

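Some refits leave every log2 change as it is by design: the filter above the median level, the trended and robust variances and the replicate block. Median centring moves all log2 changes by the same amount. Over the 14 refits made for each of the 21 probe sets, none passed the threshold in any, and 286 of 294 log2 changes, those fixed by design included, kept their direction. The 8 that did not belong to Actn3 (0.061 with quantile normalization, 0.21 with hybridization-control scaling and -0.24 to 0.083 over the arrays left out, reversed without WT replicate 1), Myoz3 probe set 1450365_at (-0.57 to 0.036, reversed without KO replicate 3), Tpm1 probe set 1423049_a_at (0.086 with hybridization-control scaling and -0.41 to 0.0079, reversed without WT replicate 1) and Acta1 (0.13 with hybridization-control scaling and -0.32 to 0.011, reversed without WT replicate 1). The cause was not tested. The count of member probe sets passing differed only when testing only the probe sets above the median level was combined with leaving out an array, a combination chosen after seeing the data, and ranged from 0 to 7. It was 7 without KO replicate 1 (Myoz2, Tpm3 1449997_at and 1449996_a_at higher; Actc1, Myoz3 1430738_at, Ldb3 1433783_at and Tpm1 1456623_at lower; 5.98% of all filtered probe sets passed) and 3 without KO replicate 3 (Myoz2 and the same 2 of Tpm3; 1.37% passed). It was 0 without each other array and 0 with all 6 arrays, where the lowest adjusted p was 0.125. Of the other Z-disc and thin filament genes 0 passed under every alternative except that same combination, where the count ranged from 0 to 9 of 48: 9 passed without KO replicate 1 (Lmod2 higher; Acta2, Actg2, Cryab, Fhod3, Lmod3, Palld, Synpo2 and Synpo2l lower), 2 without KO replicate 3 (Acta2 and Fhod3, lower) and 0 without each other array. With the replicate number as a block 0 member probe sets and 0 list genes passed. Same-numbered arrays did not deviate together (r of -0.057, 0.026 and -0.057 for numbers 1, 2 and 3), so the numbers were not taken to pair the mice. Signal limits the reading at both ends: between 51.7% and 60.3% of an array's probe sets lay below 16, and the brightest members lay near the top of the scale.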
